A study of Mus musculus with 6 samples.

Results

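The immediate early genes examined here are 10 genes chosen by symbol, Fos, Fosb, Jun, Junb, Jund, Egr1, Ier2, Ier3, Dusp1 and Atf3. All 10 were found among the 34542 rows of the gene count table, and 6 of them (Fos, Fosb, Egr1, Ier3, Dusp1 and Atf3) were also listed with separate exon and intron counts. The libraries were made from polyadenylated RNA of mouse fetal liver, strain C57BL/6J. The KO group holds 3 libraries of genotype miR-144/451-/-, numbered 4 to 6. The WT group holds 3 wild-type libraries, numbered 1 to 3. Each preparation started from 5000000 cells, and the labels do not give the embryonic age, nor whether a library came from 1 embryo or a pool. P-values therefore measure the spread between these samples, which may be technical.

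Immediate early genes are transcribed within minutes of a growth factor, cytokine or stress signal, without new protein synthesis, because factors such as SRF and CREB, which kinases of the MAPK cascades switch on, are already in the cell. FOS and JUN proteins pair through leucine zippers to form the transcription factor AP-1. Their messenger RNAs are short-lived, many through AU-rich elements of the 3' untranslated region, and some of the induced genes, DUSP1 among them, shut the kinases off again. In blood-forming tissue they respond to cytokines such as erythropoietin and stem cell factor.

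The following promoters are shown because they belong to the genes whose levels the results turn on, Fos and Jun for their library-to-library swings and Dusp1 for its difference between genotypes. Each runs from 250 bases before to 50 bases after the RefSeq start on build GRCm38.p6, 5' to 3' on the strand of the gene, with motif matches in capitals.
Fos promoter, chr12:85473640-85473939, plus strand: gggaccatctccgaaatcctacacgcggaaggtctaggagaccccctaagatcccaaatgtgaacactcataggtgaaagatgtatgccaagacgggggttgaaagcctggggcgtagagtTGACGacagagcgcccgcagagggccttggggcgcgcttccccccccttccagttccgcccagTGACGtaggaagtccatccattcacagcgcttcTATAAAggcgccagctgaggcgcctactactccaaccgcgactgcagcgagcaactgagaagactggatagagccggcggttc
Jun promoter, chr4:95052173-95052472, minus strand: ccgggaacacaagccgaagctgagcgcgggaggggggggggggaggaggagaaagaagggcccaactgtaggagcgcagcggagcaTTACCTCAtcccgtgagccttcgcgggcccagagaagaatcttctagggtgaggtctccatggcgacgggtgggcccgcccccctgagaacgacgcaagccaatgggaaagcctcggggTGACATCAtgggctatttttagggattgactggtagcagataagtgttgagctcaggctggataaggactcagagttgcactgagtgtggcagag
Dusp1 promoter, chr17:26508423-26508722, minus strand: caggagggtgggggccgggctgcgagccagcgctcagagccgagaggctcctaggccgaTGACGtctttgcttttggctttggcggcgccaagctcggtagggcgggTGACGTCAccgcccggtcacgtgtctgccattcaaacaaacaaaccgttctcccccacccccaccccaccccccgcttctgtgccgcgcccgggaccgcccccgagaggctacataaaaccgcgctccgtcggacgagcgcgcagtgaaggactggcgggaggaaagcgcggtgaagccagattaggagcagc

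The motifs were searched on both strands. The cAMP response element TGACGTCA, to which CREB binds, was found once, in the Dusp1 window at position -143 counted from the start, and in 1.88% of 27025 RefSeq promoter windows of that length. Its half-site TGACG was found at -129 and -66 in Fos and at -191, -143 and -140 in Dusp1, the last 2 lying inside the full element. Fosb (-60), Junb (-106) and Atf3 (-7) also held it, which makes 5 of 8 member windows, beside 21.0% of all windows. Fos has the TATA box letters TATAAA at -33 and Junb has them at 1, which makes 2 of 8 member windows, beside 14.2% of all windows. Jun has the AP-1-like elements TGACATCA at -45 and TTACCTCA at -164, present in 3.76% and 0.851% of windows. Both were searched as exact words, so these shares do not measure how common AP-1-like sites are. Of the 8 members with a RefSeq window none held the CArG box bound by SRF, which 1.57% of windows hold. Egr1 and Ier2 had no window, and bases more than 250 before the start were not searched. The RefSeq start lay upstream of the GENCODE gene bound for Jund (70697739 against 70698949) and Junb (84978748 against 84978718, minus strand). Whether members hold a CArG box outside these windows was not tested. All motif hits are letter matches and not evidence of binding.

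The deleted locus encodes the microRNAs miR-451a and miR-144, whose mature forms are shown with the seed (bases 2 to 8) in capitals because that is the part that pairs with target messages. They lie on the plus strand of build GRCm38.p6, miR-451a at chr11:78073186-78073207, miR-144-3p at chr11:78073047-78073066 and miR-144-5p at chr11:78073010-78073032, with sequences from RefSeq.
miR-451a: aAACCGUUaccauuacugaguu
miR-144-3p: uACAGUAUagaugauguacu
miR-144-5p: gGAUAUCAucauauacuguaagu
Fosb site for miR-144-3p: ggagcgctttATACTGTgaatgagt

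That Fosb match, with the seed complement in capitals, was the 1 found in the members. None of the 10 had a miR-451a seed match (AACGGTT) in the longest annotated 3' untranslated region, whereas 2.04% of tested genes with such a region did. The share was 13.2% for miR-144-3p (ATACTGT) and 5.91% for miR-144-5p (TGATATC). Fosb carries its site in the longest annotated form, of 2302 bases, where it begins at base 1074, and not in the shortest, of 207 bases.

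Mir144 and Mir451, the deleted genes, check the labels. Mir144 had 1, 1 and 0 counts in KO replicates 4, 5 and 6, against 51, 47 and 29 counts in WT replicates 1, 2 and 3. Mir451 had 3, 2 and 4 counts in KO libraries, against 323, 446 and 418 counts in WT libraries. The gene table held 40392139 to 44700229 counts per KO library and 24659978 to 36082084 counts per WT library. Defining markers of hepatocytes and erythroid cells were present in all 6 libraries. KO replicate 6 and WT replicate 2 stood apart in the 20 hepatocyte markers, which summed to 13879, 21773 and 49343 CPM (the count relative to the TMM-scaled total of its library) in KO replicates 4, 5 and 6 and to 16079, 60656 and 9480 CPM in WT replicates 1, 2 and 3.

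A pair of members fell in KO livers. Dusp1, which encodes a nuclear phosphatase that inactivates p38, JNK and ERK kinases, and Ier3, which encodes a stress-induced regulator of cell survival, were each lower in all 3 KO libraries than in any WT library. No member rose past the test. In edgeR's quasi-likelihood test with Benjamini-Hochberg (BH) adjustment over all genes, the test behind every adjusted p given here unless another tool is named, 9 members had enough counts to be tested and 2 of these 9 passed an adjusted p of 0.05. Among all 15105 tested genes 3.28% passed, made up of 1.83% that were higher and 1.45% that were lower in KO. The groups did not overlap for 3 of the 9, Dusp1, Ier3 and Jund, beside 22.7% of all tested genes, and an unadjusted p under 0.05 was reached by those 3, beside 16.6% of all.

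Dusp1 lies on chromosome 17 at 26505590 to 26562128 (minus strand, GENCODE gene bounds on GRCm38). It measured 26.7, 27.6 and 27.0 CPM in KO replicates 4, 5 and 6, against 56.4, 47.8 and 52.5 CPM in WT replicates 1, 2 and 3. The KO libraries lay within 1.03-fold of each other and all were below the lowest WT library. The mean was 27.1 ± 0.449 CPM in KO and 52.2 ± 4.29 CPM in WT (SD, n = 3 each). The fitted log2 change was -0.95 (SE 0.09, 95% interval -1.16 to -0.74, adjusted p = 0.0107, edgeR). This is 0.519 times the WT level, with an interval of 0.448 to 0.601.

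Ier3, on chromosome 17 at 35821684 to 35822923 (plus strand), measured 6.22, 7.47 and 8.19 CPM in KO replicates 4, 5 and 6. The WT replicates 1, 2 and 3 measured 22.8, 12.7 and 17.1 CPM. WT libraries differed among themselves by 1.79-fold, and the lowest of them still lay above the highest KO library. The log2 change was -1.26 (SE 0.24, 95% interval -1.84 to -0.69, adjusted p = 0.0465, edgeR), or 0.416 times the WT level.

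Both calls depended on which libraries were included. Ier3 lost its call without KO replicate 4, 5 or 6 or WT replicate 1 or 3 (adjusted p from 0.0874 to 0.157, edgeR) and by limma-voom (adjusted p = 0.0579), and it kept it without WT replicate 2 (0.0115). Dusp1 lost its call without KO replicate 5 or WT replicate 1 or 3 (adjusted p from 0.0567 to 0.0669, edgeR) and kept it without KO replicate 4 or 6 or WT replicate 2. Their log2 changes stayed between -1.45 and -1.03 for Ier3 and between -1.01 and -0.89 for Dusp1 over the 6 fits. Both were also called without the 2 libraries of highest hepatocyte level.

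Marker genes of other cells differed between the groups to different extents. In bulk tissue fewer cells of a type and less RNA per cell cannot be told apart. Of 10 erythroid markers 8 were in the table. Their summed level ran from 14083 to 16803 CPM in KO and from 18896 to 25976 CPM in WT, without overlap. The 6 mast cell markers summed to 12.3 to 15.8 CPM in KO and 17.98 to 28.1 CPM in WT, also without overlap. The 12 neutrophil markers summed to 1570 to 3286 CPM in KO and 2466 to 4283 CPM in WT, with overlap, and no marker of these 3 lists was at 0 in all libraries. As single genes, 1 of 8 tested erythroid, 0 of 5 tested mast cell and 0 of 12 tested neutrophil markers were called by edgeR. The sums of the hepatocyte, macrophage, endothelial, megakaryocyte, stellate and mesenchymal, lymphoid, and stem and progenitor lists overlapped between the groups. The part of erythroid and mast cell content in the result was not tested. With the neutrophil marker level as a covariate, a fit added after the data were seen, the changes were -0.92 for Dusp1 and -1.12 for Ier3 (adjusted p = 0.101 and 0.254, edgeR), and 7 genes in all were called.

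**Figure D1:**
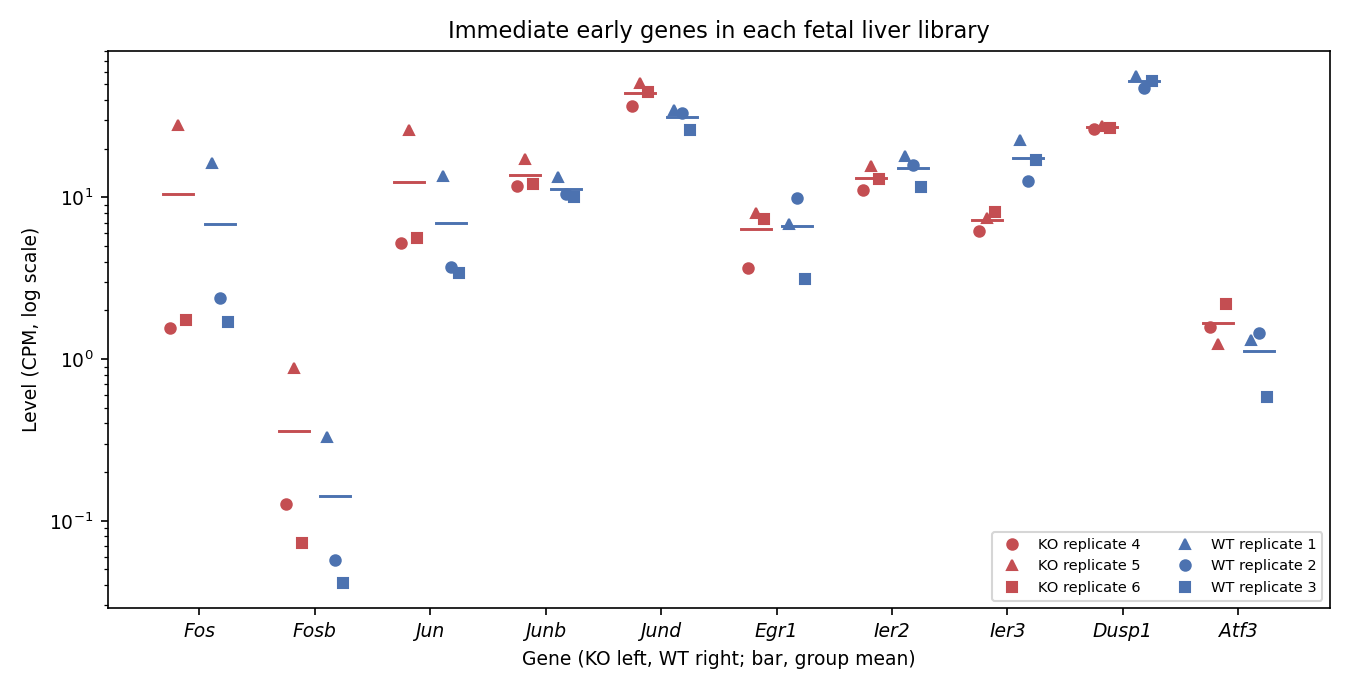
Level of each member in every library, in CPM on a log axis, with KO libraries (red) left of WT libraries (blue) and a bar at each group mean. Dusp1 and Ier3 are lower in all KO libraries, and Fos, Fosb and Jun are far higher in KO replicate 5 and WT replicate 1 (triangles) than in the other libraries of their group.

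The AP-1 genes Fos, Fosb and Jun behaved differently. Their levels differed more between libraries of a group than between the group means, with 1 high library in each group, and neither tested gene of the set, Fos or Jun, passed. Fos, which encodes the partner that joins JUN in the inducible form of AP-1, measured 1.55, 28.2 and 1.74 CPM in KO replicates 4, 5 and 6, against 16.4, 2.40 and 1.70 CPM in WT replicates 1, 2 and 3. KO replicate 5 exceeded KO replicate 4 by 18.1-fold and WT replicate 1 exceeded WT replicate 3 by 9.64-fold, while the low libraries of both groups overlapped. The log2 change was 0.61 (SE 1.35, 95% interval -2.63 to 3.86, adjusted p = 0.945, edgeR). It was -2.03 without KO replicate 5 and 2.35 without WT replicate 1, so its direction was that of whichever high library stayed in.

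Jun, which encodes a partner of FOS in AP-1, measured 5.22, 26.3 and 5.60 CPM in KO replicates 4, 5 and 6, against 13.6, 3.74 and 3.41 CPM in WT replicates 1, 2 and 3. The high libraries were again KO replicate 5 and WT replicate 1, at 5.05-fold and 4.002-fold the lowest of their group. The log2 change was 0.83 (95% interval -1.15 to 2.82, adjusted p = 0.749, edgeR), -0.35 without KO replicate 5 and 1.79 without WT replicate 1. Fosb, a FOS paralogue, was too sparse to be tested, with 6, 37 and 3 counts in KO replicates 4, 5 and 6 and 11, 2 and 1 counts in WT replicates 1, 2 and 3. The same 2 libraries held most of its counts.

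Junb and Jund, the other JUN paralogues, varied much less. Junb, an AP-1 subunit that restrains growth in myeloid cells, measured 11.8, 17.4 and 12.1 CPM in KO libraries and 13.4, 10.4 and 10.1 CPM in WT libraries. KO replicate 5 and WT replicate 1 were again the highest of their groups, by 1.48-fold and 1.33-fold over the lowest, and the groups overlapped (log2 change 0.28, adjusted p = 0.617, edgeR). Junb overlaps Prdx2 on the opposite strand in exons, and Prdx2 averaged 2435 CPM in KO and 2796 CPM in WT. Without a stated strand setting, it cannot be said which reads belong to which gene, and the antisense genes Junos at Jun and Gm11175 at Jund have the same limit. Jund, the JUN gene expressed most steadily without stimulation, measured 37.0, 51.3 and 45.1 CPM in KO replicates 4, 5 and 6 and 34.7, 33.5 and 26.1 CPM in WT replicates 1, 2 and 3. All KO libraries lay above all WT libraries, but the change did not pass (log2 change 0.50, 95% interval 0.11 to 0.89, adjusted p = 0.188, edgeR). Adding hepatocyte marker level as a covariate gave an adjusted p of 0.0362 (edgeR), in a fit with 2586 genes called.

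Egr1, a zinc finger factor induced through SRF, measured 3.68, 7.99 and 7.41 CPM in KO libraries and 6.89, 9.90 and 3.11 CPM in WT libraries, with the groups overlapping (log2 change -0.07, 95% interval -1.19 to 1.06, adjusted p = 0.996, edgeR). Its highest library was WT replicate 2, so it did not follow Fos. Ier2, a nuclear growth-response protein, measured 11.1, 15.7 and 13.01 CPM in KO libraries and 18.1, 15.8 and 11.7 CPM in WT libraries (log2 change -0.19, adjusted p = 0.780, edgeR). Atf3, a stress-induced factor of the CREB and ATF family, stayed at 1.58, 1.24 and 2.18 CPM in KO libraries and 1.32, 1.45 and 0.581 CPM in WT libraries (log2 change 0.56, adjusted p = 0.586, edgeR). The libraries highest in Fos and Jun were not the highest in Atf3.

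**Figure D2:**
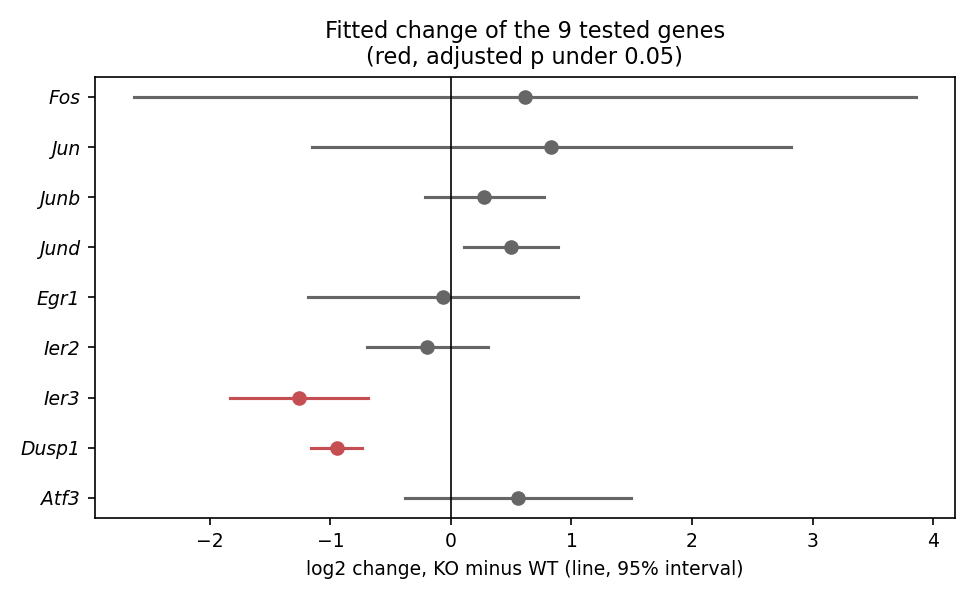
Fitted log2 change of the 9 tested members, KO minus WT, with its 95% interval, and adjusted p under 0.05 in red. The interval of Fos runs from -2.63 to 3.86 and that of Dusp1 from -1.16 to -0.74.

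Spread between libraries of a group was put on 1 scale as the SD of log2 CPM pooled over both groups. Its median over all tested genes was 0.17. Fos had 1.90 and Jun 1.16, larger than in 99.98% and 99.1% of tested genes. Egr1 followed with 0.68 and Atf3 with 0.40. Ier3 (0.32), Ier2 (0.28), Junb (0.26) and Jund (0.23) were also above the median. Dusp1 was the 1 tested member below it, with a spread larger than in 12.1% of tested genes.

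The order of the members by level was set per kilobase of annotated exon. For Jund that length was 1668 bases, whereas from the RefSeq start it spans 2878 bases, so its level per kb depends on the annotation used. In KO livers Jund led with 26.7 ± 4.32 CPM per kb (SD, n = 3), then Ier2 (8.73), Dusp1 (8.18), Ier3 (6.45) and Junb (5.98). In WT livers Jund led with 18.9 ± 2.79 CPM per kb, then Dusp1 (15.8), Ier3 (15.5), Ier2 (9.98) and Junb (4.93). The libraries of Dusp1 and Ier2 overlapped in KO, as did those of Ier2 and Junb and of Ier3 and Junb. In WT those of Dusp1 and Ier3 and of Ier3 and Ier2 overlapped. By mean, Fos, Jun, Egr1, Atf3 and Fosb came last in both groups, in that order. The library ranges of Junb and Fos, of Fos and Jun, of Fos and Egr1 and of Jun and Egr1 overlapped in each group. In KO those of Egr1 and Atf3 and of Fos and Atf3 overlapped too. KO replicate 5 put Fos at 11.99 and Jun at 8.26 CPM per kb. In KO the ranges of both therefore also overlapped those of Ier2, Dusp1, Ier3 and Junb. Jund stood apart from all others in KO, where its lowest library had 22.2 CPM per kb and the highest of any other member, Fos in replicate 5, had 11.99 CPM per kb. In WT its range overlapped those of Dusp1 and Ier3.

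Heat shock genes were among the lists followed beside the members. Of 12 listed genes 11 were tested, and none passed by edgeR or limma-voom, while edgeR put 0 higher and 1 lower below an unadjusted p of 0.05 and DESeq2 called 0 higher and 1 lower. The inducible HSP70 genes Hspa1a and Hspa1b had the library pattern of Fos and Jun. Hspa1a measured 4.58, 71.9 and 4.97 CPM in KO replicates 4, 5 and 6, against 24.6, 0.970 and 1.49 CPM in WT replicates 1, 2 and 3. Hspa1b measured 8.11, 140 and 5.62 CPM in KO libraries, against 48.5, 1.43 and 3.07 CPM in WT libraries. These near-identical copies share reads, so the split between them is uncertain. The constitutive Hspa8 measured 2275, 1858 and 1999 CPM in KO libraries and 2018, 2297 and 2235 CPM in WT libraries, without that pattern. Hsp90ab1, a constitutive HSP90 gene, averaged 2113 CPM in KO and 1944 CPM in WT (adjusted p = 0.861, edgeR).

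A search chosen after these values were seen asked which of the 15105 tested genes exceeded, by at least 2-fold on CPM + 0.5, the next highest library of their group both in KO replicate 5 and in WT replicate 1. It returned 4 genes, Hspa1b, Hspa1a, Fos and Jun. The 2 libraries were also the highest of their group in neutrophil markers, whose summed level was 1570, 3286 and 2181 CPM in KO replicates 4, 5 and 6 and 4283, 3458 and 2466 CPM in WT replicates 1, 2 and 3. The part of neutrophil content in the pattern was not tested. With the neutrophil covariate the log2 change was 2.22 for Fos (adjusted p = 0.415, edgeR) and 1.89 for Jun (adjusted p = 0.308, edgeR).

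**Figure D3:**
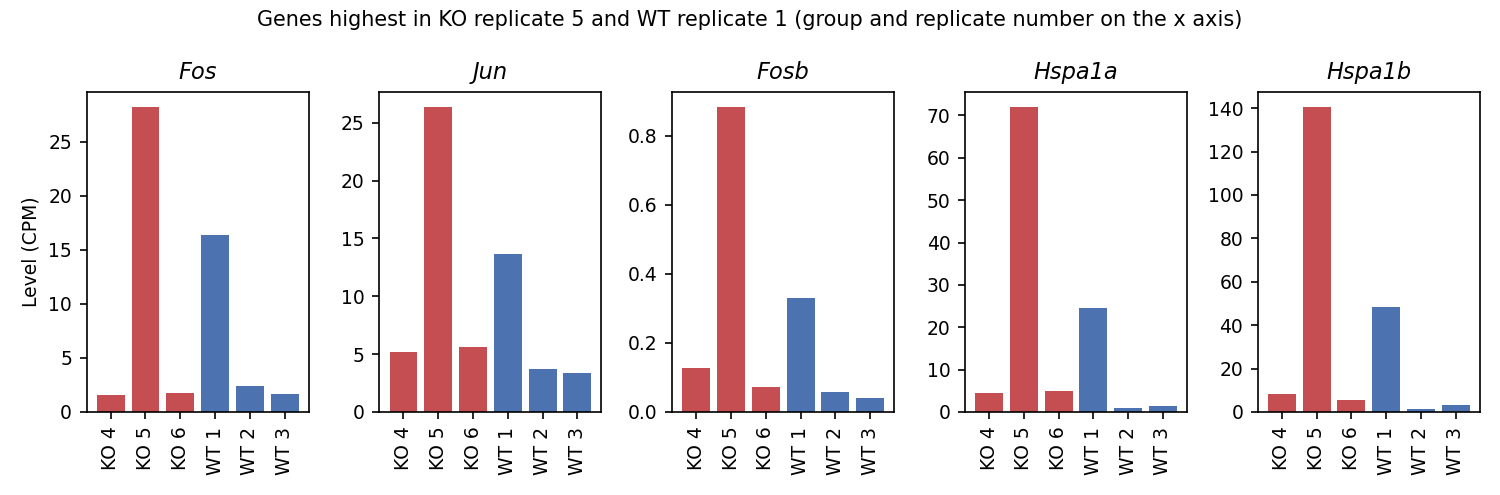
Level in CPM, on linear axes from 0, of Fos, Jun, Fosb, Hspa1a and Hspa1b in each KO (red) and WT (blue) library. KO replicate 5 and WT replicate 1 are the highest of their group for all 5 genes.

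The members' mean profile was compared with single genes. Over the 9 tested members the mean log2 level was 2.95, 3.91 and 3.22 in KO replicates 4, 5 and 6 and 3.91, 3.32 and 2.96 in WT replicates 1, 2 and 3. Candidates were 10371 genes outside all lists averaging 5 CPM or more. The 8 nearest to that profile, by root mean square difference of centred log2 CPM over the 6 libraries, lay 0.17 to 0.23 from it. They included Ncf4, a subunit of the phagocyte NADPH oxidase, Plaur, the urokinase receptor, the leukocyte surface protein gene Cd52, the G protein regulator Rgs2, Ms4a3, Gpc1 and Sun2. The nearest, Ncf4, measured 25.0, 39.1 and 32.1 CPM in KO libraries and 42.8, 31.2 and 29.0 CPM in WT libraries. Among the members themselves Ier2 lay nearest (0.21) and Fos farthest (1.18).

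Intron counts, which stand for unspliced RNA, were deposited for members that have introns. Jun, Junb, Jund and Ier2 have a single exon in their principal annotated transcript and were not in that table. Fos introns held 10, 597 and 7 counts in the columns headed KO 4, 5 and 6, and 6, 365 and 3 counts in the columns headed WT 1, 2 and 3. Fosb introns held 6, 61 and 0 counts in the KO columns and 2, 20 and 2 counts in the WT columns. In KO, replicate 5 was high in exons and introns alike, and Fos introns made up 12.05%, 33.6% and 8.86% of its counts in replicates 4, 5 and 6 (95% exact intervals 5.93% to 21.0%, 31.4% to 35.8% and 3.64% to 17.4%, counting error only). In WT the high intron column was headed 2, whereas the high exon column was headed 1.

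The headings of the WT columns were therefore checked over all genes. Within each group the exon and intron columns were compared by Pearson's r of centred log2 CPM across 7738 genes with a mean of at least 100 counts in both, a description since genes share libraries. Each KO exon column was most like the intron column of its own number (r = 0.76, 0.39 and 0.74 for replicates 4, 5 and 6). Exon column WT 1 was most like intron column WT 2 (0.58, against 0.48 with its own number). Exon column WT 2 was most like intron column WT 3 (0.82, against -0.45), and exon column WT 3 most like intron column WT 1 (0.77, against -0.75). The 20 hepatocyte markers summed to 17842, 66246 and 10580 CPM, scaled within that table, in WT exon columns 1, 2 and 3 and to 1550, 3795 and 9159 CPM in WT intron columns 1, 2 and 3. The WT intron columns thus went against their numbers, so exon and intron counts of single WT libraries are not compared here. The test of introns over all 6 libraries uses the group and not the number. The interaction fit with a term per library, and fits of introns that leave out a numbered library or add a covariate, do use the number and carry this limit.

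**Figure D4:**
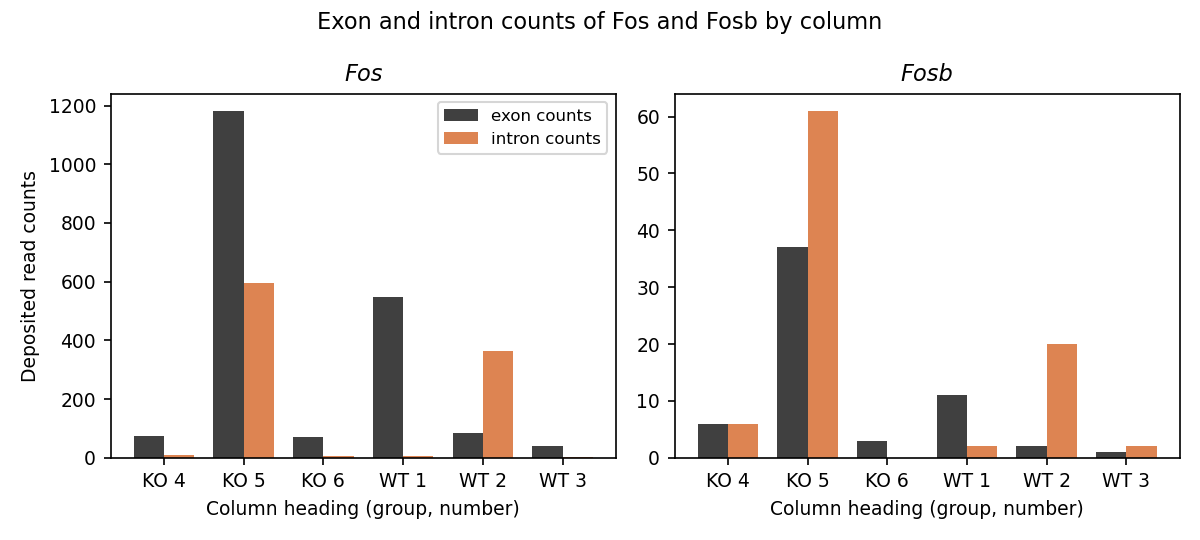
Deposited exon (dark) and intron (orange) counts of Fos and Fosb by column heading, KO columns left and WT columns right. Both are high in KO 5, while in WT the exon counts are highest in column 1 and the intron counts in column 2.

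By edgeR 0 of the 3 members tested in introns passed, with 0 at an unadjusted p under 0.05 and 0 by limma-voom, while DESeq2 gave them no adjusted p, beside 0.72% of 11803 genes called. Dusp1 introns measured 4.39, 2.76 and 4.16 CPM in KO columns and 3.89, 3.48 and 5.10 CPM in WT columns. These rest on few reads, 50, 20 and 35 counts in KO columns and 26, 24 and 36 counts in WT columns. The groups overlapped, with a log2 change of -0.14 (95% interval -0.94 to 0.67, adjusted p = 0.980, edgeR) beside -0.95 for the gene count. An annotated Dusp1 transcript starts far upstream, where it overlaps Ergic1, and whether the deposited intron counts include that stretch is not stated. The annotated genes AC122252.1 and AC122252.4 overlap Dusp1 on the same strand, outside its exons. Whether their reads were counted as Dusp1 introns is not stated either. The exonic change of Dusp1 lay 0.82 below the intronic one in the fit without a term per library (log2 difference -0.82, SE 0.26, adjusted p = 0.653 by the edgeR interaction, 0.0101 before adjustment). That fit called 9 of 11100 genes. It treats the exon and intron columns of a library as independent, so its SE and p-values ignore that they share a library. The fit with the term per library pairs the WT columns by their mismatched numbers, so its values are given as computed and nothing is read from them. There the difference was -0.81 (unadjusted p = 0.0228, adjusted p = 1, edgeR), 0 genes or 0% passed, 352 had an unadjusted p under 0.05, and DESeq2 called 34 higher and 8 lower. Introns of Atf3 (log2 change -0.24) and Egr1 (0.14) did not pass either, and those of Fos, Fosb and Ier3 were below the filter.

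Some features shared by the members were not used to choose them. By GENCODE gene bounds 8 of the 10 were shorter than the median tested gene of 24287 bases, from 1240 bases for Ier3 to 7356 bases for Fosb, and the exceptions were Atf3 (47744 bases) and Dusp1 (56539 bases). Both exceptions come from annotated upstream starts, since from the RefSeq start to the end of the gene Atf3 spans 13038 bases and Dusp1 2883 bases. The AU-rich pentamer ATTTA occurred in the longest 3' untranslated region of 9 of 10, with Ier2 the exception, beside 69.4% of tested genes. Ier3 had 5 copies, or 8.16 per kb, Dusp1 4 (5.80 per kb), Fos 4 (4.91 per kb), Junb 2 (4.12 per kb) and Jun 4 (3.24 per kb). Atf3 had 2.53, Jund 1.88, Egr1 1.64 and Fosb 0.43 copies per kb. The median was 1.34 per kb over tested genes with at least 100 bases, so 8 members lay above it and Fosb and Ier2 below. The longer word TATTTAT was present in 7 of 10 members and 29.6% of tested genes. Dusp1 overlaps Ergic1 on the opposite strand in annotated exons. Ergic1 measured 42.9, 45.3 and 54.7 CPM in KO libraries and 37.1, 52.4 and 32.5 CPM in WT libraries, a log2 change of 0.23 (adjusted p = 0.688, edgeR) that ran the other way from Dusp1.

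Further immediate early genes went both ways. Of 48 listed beside the members 42 were tested, 1 rose and 2 fell, beside 3.28% called among all tested genes, and DESeq2 called 1 higher and 3 lower. Before adjustment 3 were higher and 5 lower below 0.05 by edgeR, beside 16.6% of all tested genes in either direction. The median log2 change was 0.03, beside -0.03 over all tested genes. By median the 9 tested members stood at 0.28, with 5 above 0 and 4 below. Tsc22d1, a leucine zipper regulator, rose to 163 ± 1.20 CPM in KO livers, against 116 ± 1.90 CPM in WT livers (SD, n = 3 each; log2 change 0.49, adjusted p = 0.0181, edgeR). Klf10, a TGF-beta-inducible repressor, fell to 23.6 ± 1.84 CPM, against 40.3 ± 3.91 CPM in WT (log2 change -0.77, adjusted p = 0.0239, edgeR). Socs3, a feedback inhibitor of cytokine receptors, fell as well (-2.16, adjusted p = 0.00562, edgeR). Zfp36, which encodes an AU-rich element binding protein, measured 9.41, 23.4 and 10.8 CPM in KO libraries and 17.0, 13.01 and 8.47 CPM in WT libraries. It was highest in KO replicate 5 and WT replicate 1 like Fos, and its change did not pass (adjusted p = 0.954, edgeR). The list was mixed in this respect. Some genes, such as Btg2, Ier5, Gadd45a and Klf4, were also highest in those libraries of their groups. Others, such as Dusp6, Maff, Trib1, Id2 and Hes1, were instead highest in KO replicate 6 and WT replicate 2. Of the other classical members of the family, Egr2, Egr3, Egr4, Fosl1, Nr4a3 and Arc were below the filter.

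Among the upstream genes, those of the MAP kinase cascade showed no call by edgeR or limma-voom among 19 tested of 20 listed. Before adjustment edgeR put 2 higher and 3 lower below 0.05, DESeq2 called 0 higher and 2 lower, and edgeR with RLE scaling called 1 lower. Map2k3, a kinase of p38, measured 160 ± 16.3 CPM in KO and 219 ± 20.8 CPM in WT (adjusted p = 0.0957, edgeR). Rps6ka1, a kinase that ERK activates, measured 227 ± 27.7 CPM in KO and 202 ± 18.7 CPM in WT (adjusted p = 0.595, edgeR). Of 16 SRF, ternary complex factor and CREB regulators Atf4, the stress response factor, fell to 308, 299 and 268 CPM in KO libraries, against 488, 393 and 467 CPM in WT libraries (log2 change -0.62, adjusted p = 0.0436, edgeR) and the other 15 did not pass. Before adjustment 3 of the 16 were higher below 0.05 by edgeR, and DESeq2 called 1 higher. Without the filter on low counts the adjusted p of Atf4 was 0.0708. Of 12 tested bZIP partners of AP-1, a list that shares Fosl1, Fosl2 and Maff with the immediate early list and Atf2 with the CREB list, the small MAF gene Mafg fell (-0.65, adjusted p = 0.0265, edgeR) and 11 did not pass.

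Among other feedback inhibitors of ERK and stress kinases, Dusp16 and Spry1 rose while Dusp1 fell. Of 14 tested, 2 rose and 0 fell by edgeR, beside 1.83% called higher and 1.45% called lower among all tested genes. Before adjustment 3 were higher and 0 lower (p under 0.05, edgeR), beside 16.6% of all tested genes in either direction. DESeq2 called 2 higher and 0 lower. Dusp16, a phosphatase for JNK and p38 like DUSP1, measured 66.8, 78.7 and 71.0 CPM in KO replicates 4, 5 and 6, against 36.5, 29.1 and 34.4 CPM in WT replicates 1, 2 and 3. The groups did not overlap (log2 change 1.11, SE 0.11, adjusted p = 0.0123, edgeR). Spry1, an inhibitor of receptor tyrosine kinase signalling, measured 11.7, 16.8 and 17.6 CPM in KO libraries and 4.85, 7.10 and 4.15 CPM in WT libraries (log2 change 1.52, SE 0.26, adjusted p = 0.0355, edgeR). Dusp6, listed with the immediate early genes, the ERK-specific phosphatase induced by ERK itself, measured 8.48, 14.0 and 23.2 CPM in KO and 11.1, 21.8 and 7.23 CPM in WT, with the groups overlapping (adjusted p = 0.963, edgeR). Of the 7 genes called in these lists (Tsc22d1, Klf10, Socs3, Atf4, Mafg, Dusp16 and Spry1), all 7 kept the call without WT replicate 2. Socs3 and Dusp16 kept it without KO replicate 4 or 6, Socs3 alone without WT replicate 1 or 3, and 0 without KO replicate 5.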

How the data were processed

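Polyadenylated RNA of 6 fetal liver libraries was sequenced on a HiSeq2000, per the labels' protocols. The authors deposited raw read counts per gene symbol, without globin and mitochondrial genes per the file headers and names, and exon and intron counts for 15543 genes, whose exon counts equal the gene counts for all 15543. STAR and HTSeq, without versions, and builds NCBIM37 and mm10 are named per the submitters' processing notes. The sources used here give neither strand setting nor intron definition. Every row names a gene.

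Groups came from sample titles. Counts were scaled by TMM and filtered by filterByExpr (minimum count 10, total 15), then tested KO against WT in edgeR 4.0.16 (R 4.3.3), quasi-likelihood, two-sided, BH-adjusted over all tested genes. DESeq2 1.42.0, limma 3.58.1, RLE scaling, no filter, covariates and left-out libraries were alternatives. Log2 CPM used a pseudocount of 0.5. Exonic against intronic change was tested as an interaction, scaled per region. The fits were tested on simulated data. Symbols of all 10 members matched GENCODE M21 (GRCm38), whose lengths and 3' untranslated regions were used, and 8 matched a RefSeq promoter window. Counts without molecular identifiers are not independent molecules, so intervals on counts cover counting error only.

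The members and lists were chosen with earlier results of these data known. All members are named. From each list every called gene is named, and where none was called the 2 of highest mean CPM. Others were singled out after their values were seen (Zfp36, Dusp6, Map2k3, Hspa1a, Hspa1b, Hsph1, Dnajb1, Btg2, Ier5, Gadd45a, Klf4, Maff, Trib1, Id2 and Hes1). Some genes that this rule selects are not reported here.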

Additional observations from a re-analysis of the deposited data

How the results depend on the processing

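Calls depended on single libraries. The 495 genes called in gene counts became 1307 by DESeq2, 1418 without both libraries of highest hepatocyte level, 2586 with hepatocyte and 7 with neutrophil marker level as covariate and 12 to 1495 with 1 library left out. The 2 members called became 1 by limma-voom, 0 with the neutrophil covariate and 0 to 2 with 1 library left out. The 85 genes called in introns became 340 by DESeq2, 1 without columns KO 6 and WT 2, 14 with the hepatocyte covariate and 10 to 148 with 1 column left out. The 1 and 14 match intron columns to gene-count libraries by number, although WT 3 was the WT intron column of highest hepatocyte level. The 0 called for exonic against intronic change became 9 without the sample term, 42 by DESeq2 and 0 to 150 with 1 library left out, and all but the 9 pair the WT columns by number. With 1 library left out, log2 changes that turned sign ran from -2.03 to 2.35 for Fos, -0.35 to 1.79 for Jun and -0.40 to 0.34 for Egr1. They ran from -0.50 to 0.64, -0.26 to 0.0092 and -0.66 to 0.051 for introns of Egr1, Dusp1 and Atf3, and from -0.96 to 0.71 for the exonic minus intronic change of Egr1. Egr1 also turned to 0.23 (gene counts) and 0.15 (exonic minus intronic) without both hepatocyte-high libraries, Fos to -0.044 by limma-voom, and Egr1 to 0.69 and Ier2 to 0.13 with the neutrophil covariate. The cause was not tested. No paired analysis was possible because WT and KO libraries share no replicate number. Members at under 3 CPM (Fosb, Atf3) are limited by depth.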
